A study of Mus musculus with 24 samples.

Results

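Myc and 9 partner genes of the Max network were followed across 8 groups of T6E cells. T6E is a T-cell leukaemia line from the mouse that depends on Notch1 for growth. The members were the MYC genes Myc, Mycn and Mycl, the shared partner Max, the repressors Mxd1, Mxd3, Mxd4, Mxi1 and Mnt, and the parallel partner Mlx. Each is read by 1 probe set that carries its symbol alone, so the set is 10 of the 19938 genes measured. Cells were transfected with MigR1, which is the vector alone, with DNMAML, a MAML of dominant negative action, with ICN1, the intracellular part of Notch 1, or with R1984A, the same part of Notch 1 made defective in dimerization. Compound E, which inhibits gamma secretase (GSI), was given at 1 uM, or DMSO in its place, for 6 hours. This gives 8 groups of 3 arrays, named here by construct and treatment. DNMAML blocks the coactivator step of Notch transcription, and GSI blocks the cleavage that releases Notch from the membrane. ICN1 needs no cleavage, and R1984A also needs none but cannot pair with a second Notch complex on DNA. The labels do not say whether the cells with a construct were 1 clone or a mixture, and GSI was compared at 1 dose and 1 time.

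MYC proteins bind DNA only as dimers with MAX, most tightly at the E-box CACGTG, and raise genes of ribosome building, nucleotide and polyamine synthesis and cell growth. MXD proteins, MXI1 and MNT compete for MAX and recruit corepressors to the same sites, while MLX pairs with some of these repressors and with the glucose sensors MLXIP (MondoA) and MLXIPL. In T-cell leukaemia driven by Notch1, Myc is a direct Notch target, switched on through a distant enhancer.

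The E-box is shown for the members that hold it, since it is the letter sequence that the network reads. RefSeq promoter windows of GRCm38.p6, from 250 bases before to 50 after a listed start site, were found for 9 of the 10 members, and CACGTG, which reads the same on both strands, occurred in 4 of them. Over all 27025 genes with a window it occurred in 8.09%. The 50 bases around each E-box follow, 5′ to 3′ on the strand of the gene, with the E-box in capitals. Its first base lay 3 bases before the start site of its window for Max (chr12:76962224-76962273, minus strand), 40 for Mlx (chr11:101087228-101087277, plus strand), 123 for Mnt (chr11:74830779-74830828, plus strand) and 219 for Mxd4 (chr5:34187902-34187951, minus strand). For Max, Mlx and Mnt that start site lay inside the gene, whose outer 5′ edge is at 76962323, 101086707 and 74830806.
Max: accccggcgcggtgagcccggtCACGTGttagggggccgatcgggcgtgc
Mlx: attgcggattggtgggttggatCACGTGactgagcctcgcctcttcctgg
Mnt: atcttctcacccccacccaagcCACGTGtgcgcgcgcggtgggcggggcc
Mxd4: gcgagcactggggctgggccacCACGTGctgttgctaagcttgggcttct
The core letters read by RBPJ, the DNA-binding protein of the Notch complex (TGGGAA on either strand), occurred in the windows of 2 of the 9 members, Mxd3 and Mxi1, and in 28.3% of all genes. These are matches of letters and no measure of binding.

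Values are the deposited log2 expression values, so a difference of 1 is a doubling, and levels are compared between groups for the same probe set, never between genes. The medians of the 24 arrays lay between 3.90 and 4.18, with the 8 arrays numbered 3 at 4.05 or above and the others at 4.07 or below, and across genes the arrays within a group had r between 0.982 and 0.994. Of 9 measured T-lineage markers, 8 lay above every array median on all 24 arrays (Cd3e had the highest mean, 10.40). The same held for 0 of 4 B-cell, 0 of 6 myeloid, 0 of 3 erythroid, 0 of 3 natural killer and 2 of 5 stromal or epithelial markers. A gene was called higher or lower when limma, fitted over all 24 arrays, gave it an adjusted p under 0.05 (Benjamini-Hochberg, with all 19938 genes). The labels name no separate cultures behind the 3 arrays of a group, so a p-value here speaks only of the spread among these samples, and that spread may be technical. RNA came from whole cultures, in which fewer cells of a type and less RNA per cell cannot be told apart.

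Myc moved more than any other member, with group means that spanned 2.23 log2 units. It read 9.32, 9.27 and 9.24 on the MigR1-DMSO arrays (mean 9.28 ± 0.04, SD, n = 3). With GSI these cells read 8.08, 8.18 and 7.07 (7.78 ± 0.61). The DNMAML-DMSO arrays read 7.81, 8.12 and 7.71 (7.88 ± 0.21). GSI and DNMAML thus each left every array below every untreated empty-vector array, and MigR1-GSI replicate 3 stood about 1 unit below its 2 companions. DNMAML-GSI gave the lowest mean of the 8 groups, from 7.59, 7.45 and 6.85 (7.30 ± 0.39). ICN1 cells stood at the top, with 9.48, 9.53 and 9.54 in DMSO (9.51 ± 0.03). Under GSI they read 9.52, 9.41 and 9.65 (9.53 ± 0.12). Cells with R1984A were intermediate. They read 8.68, 8.65 and 8.44 in DMSO (8.59 ± 0.13) and 8.51, 8.50 and 8.14 under GSI (8.38 ± 0.21).

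**Figure D1:**
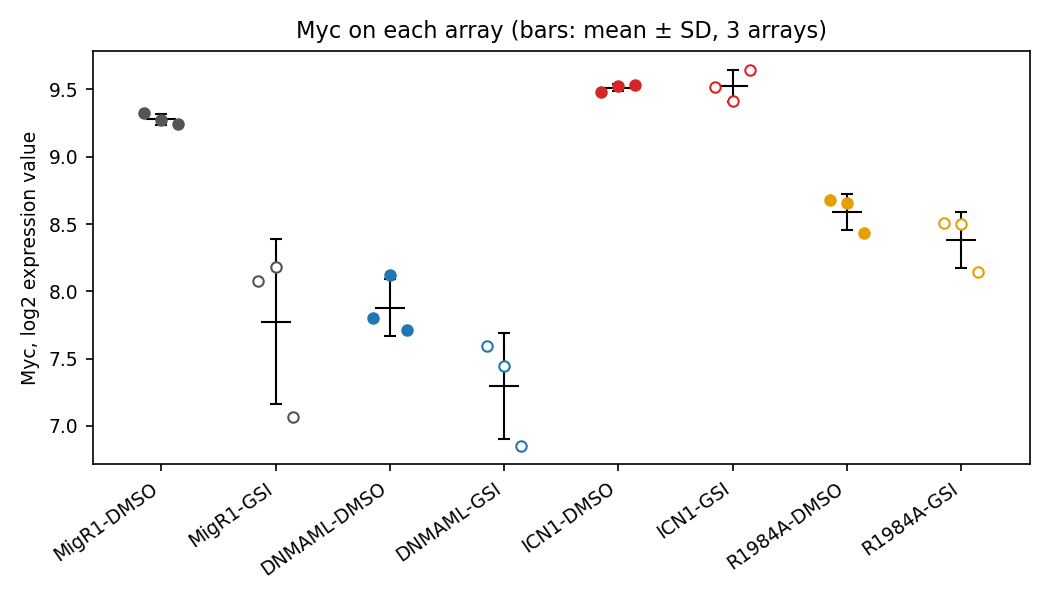
Myc on each of the 24 arrays, as deposited log2 expression values by group. Points are arrays (filled for DMSO, open for GSI) and bars are the mean ± SD of 3 arrays. ICN1 arrays lie at 9.41 or above in both treatments, R1984A arrays between 8.14 and 8.68, and DNMAML-GSI arrays at 7.59 or below.

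From the lowest mean to the highest, the order was DNMAML-GSI, MigR1-GSI, DNMAML-DMSO, R1984A-GSI, R1984A-DMSO, MigR1-DMSO, ICN1-DMSO and ICN1-GSI. No step between neighbours in that order was called by limma, with differences from 0.01 to 0.69 (SE 0.21) and adjusted p from 0.203 to 1.0. The arrays did not overlap at 3 of the 7 steps, which lay below R1984A-GSI, below MigR1-DMSO and below ICN1-DMSO. Of all 28 pairs of groups, 16 differed by the test and 23 did not overlap. The widest gap, ICN1-GSI over DNMAML-GSI, was 2.23 (SE 0.21, adjusted p = 1.28e-07), a 4.68-fold difference.

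Myc was lower with either block of Notch than in untreated empty-vector cells. The fall with GSI in MigR1 cells was -1.503 (SE 0.21, adjusted p = 7.03e-04), 2.83-fold, and of the 10 members Myc was the only gene called. Over all genes 0.166% were called in either direction (33 genes, or 82 with the replicate number as a block). The 9 other members lay between -0.21 and 0.33. With limma fitted only to the 6 arrays compared, the Myc difference was the same but its adjusted p was 0.201. It stayed called when any of the 6 arrays was left out (adjusted p up to 0.00699), with a value between -1.704 and -1.150.

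DNMAML lowered Myc by 1.40 in DMSO (SE 0.21, adjusted p = 4.31e-04), 2.64-fold. Myc was again the only member called, beside 1.94% of all genes in either direction (386 genes, or 934 with the replicate block). Mnt, the broadly expressed repressor partner of MAX, stood at -0.24 (SE 0.10, adjusted p = 0.346) with all 3 DNMAML arrays below the 3 controls. This comparison and that of GSI in MigR1 cells share the 3 MigR1-DMSO arrays. The list of direct Notch targets gave a view of the block itself. Of Hes1, Dtx1, Nrarp, Hey1, Il2ra and Notch3, 4 of 6 fell with GSI and 6 of 6 fell with DNMAML.

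The differences made by adding a second block to the first did not pass the test for Myc. GSI in DNMAML cells gave -0.58 (SE 0.21, adjusted p = 1.0), although the 3 GSI arrays were all below the 3 DMSO arrays. DNMAML under GSI gave -0.48 (SE 0.21, adjusted p = 0.722), with overlapping arrays. Both blocks together, DNMAML-GSI against MigR1-DMSO, gave -1.98 (SE 0.21, adjusted p = 3.88e-06), a 3.95-fold lower level. In DNMAML cells limma called 0 of the 10 members after GSI, beside 0.00502% of all genes (1 gene). At an unadjusted p under 0.05 there was 1 member, Myc (0.0113 by limma), beside 2.54% of all genes. For DNMAML under GSI it called 0 members, beside 0.191% of all genes (38 genes, or 163 with the replicate block). There 2 members, Myc and Mxd4, had an unadjusted p under 0.05, beside 6.26% of all genes.

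In ICN1 cells the Myc arrays overlapped with and without GSI. The difference was 0.01, with a 95% interval of -0.42 to 0.45 and the opposite sign with array weights (-0.04). R1984A cells gave -0.21 with GSI (95% interval -0.64 to 0.23) and overlapping arrays. In both constructs limma called 0 of the 10 members after GSI, and 0% of all genes. In each, 1 member had an unadjusted p under 0.05, beside 2.37% of all genes for ICN1 and 3.18% for R1984A.

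**Figure D2:**
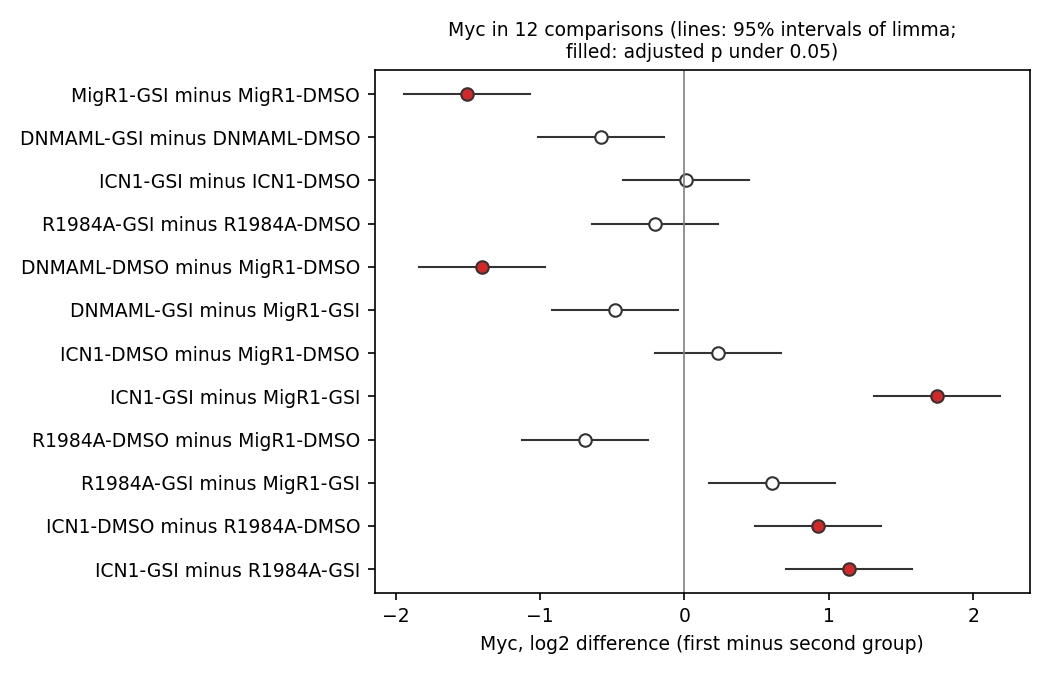
Myc log2 difference (first minus second group) in 12 comparisons, with lines for limma's 95% interval and filled points where the adjusted p was under 0.05. The falls with GSI in MigR1 cells and with DNMAML in DMSO and the excess of ICN1 over MigR1-GSI and over R1984A are filled, and ICN1 lies at 0.01 for GSI against DMSO.

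Set against the empty vector under GSI, ICN1 raised Myc by 1.75 (SE 0.21, adjusted p = 1.05e-05), 3.36-fold. The 3 ICN1-GSI arrays all exceeded the 3 MigR1-GSI arrays. Myc was the only member of the 10 called, beside 2.35% of all genes, and 5 members had an unadjusted p under 0.05 (Myc, Mycn, Max, Mxi1 and Mnt), beside 10.7% of all genes. R1984A under GSI gave 0.61 (SE 0.21, adjusted p = 0.305), with arrays that overlapped those of MigR1-GSI. There limma called 0 of 10 members, beside 1.36% of all genes, and 3 had an unadjusted p under 0.05 (Myc, Mycn and Mxi1), beside 7.51%. Yet 5 of the 6 direct Notch targets were called higher with R1984A-GSI over MigR1-GSI, among them Nrarp, a feedback inhibitor of Notch, by 2.03 (SE 0.11, adjusted p = 4.23e-11), and 6 of 6 were higher with ICN1-GSI. The comparisons of ICN1 and R1984A share the MigR1-GSI arrays.

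In DMSO, where the cells' own Notch was not blocked, the Myc means of the constructs lay on opposite sides of the empty vector, neither past the test. ICN1 stood 0.24 above the empty vector (SE 0.21, adjusted p = 0.997), with its 3 arrays at 9.48 or above against 9.32 or below. That SE rests on a spread shared by all 8 groups, whose Myc SDs ran from 0.029 to 0.613. R1984A stood 0.69 below (SE 0.21, adjusted p = 0.203), with its 3 arrays all lower. The latter was called with the replicate number as a block (adjusted p = 0.0373), where same-numbered arrays deviated together. It was also called without all arrays numbered 3 (-0.63, adjusted p = 0.0213) and with only the 6 arrays compared (adjusted p = 0.0250). Of the 10 members limma called 1 for ICN1 in DMSO, Mxd3, beside 0.727% of all genes (145 genes, or 297 with the block). For R1984A in DMSO it called 0, beside 0.978% of all genes (195 genes, or 366 with the block). There 1 member, Myc, had an unadjusted p under 0.05 (0.00339 by limma), beside 6.66% of all genes. Nrarp was higher with either construct in DMSO, by 1.05 for ICN1 and 0.85 for R1984A (SE 0.11, adjusted p = 2.77e-06 and 6.96e-05).

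The direct comparison of the constructs sets ICN1 against its dimerization-defective form. The amount of each construct was not examined, so it cannot be told apart from loss of dimerization. Under GSI, Myc was 1.14 higher with ICN1 than with R1984A (SE 0.21, adjusted p = 0.00522), 2.20-fold, with no overlap of arrays. It stayed called with any 1 of the 6 arrays left out (0.959 to 1.203, adjusted p up to 0.0424). Myc was the only member called, beside 1.10% of all genes. In DMSO the difference was 0.92 (SE 0.21, adjusted p = 0.0269), 1.90-fold, again with no overlap. That call ended when any 1 of the 6 arrays was left out. The adjusted p was then 0.0896, 0.0974 and 0.124 without ICN1-DMSO replicate 1, 2 or 3, and 0.0727, 0.0851 and 0.138 without R1984A-DMSO replicate 1, 2 or 3. The call held without all arrays numbered 3 (adjusted p = 0.0037), an omission chosen after seeing the data. The DMSO comparison called 2 of 10 members, Myc higher and Mxd3 lower, beside 0.963% of all genes (192 genes, or 456 with the replicate block). Of the 6 direct Notch targets, Hes1 alone was called between the constructs under GSI, by 0.71 higher with ICN1 (SE 0.14, adjusted p = 0.00819), and none in DMSO, where 2 had an unadjusted p under 0.05.

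Whether each construct restored the untreated level under GSI was read against MigR1-DMSO. ICN1-GSI stood 0.25 above it (95% interval -0.19 to 0.68, adjusted p = 1.0), and limma called 0 of 10 members, beside 0.682% of all genes, with 1 member at an unadjusted p under 0.05, beside 6.09% of all genes. R1984A-GSI stood 0.89 below it (SE 0.21, adjusted p = 0.0423), and Myc was the only member called, beside 0.737% of all genes. Leaving out any 1 of its 6 arrays ended that call, with adjusted p of 0.171, 0.151 and 0.126 without MigR1-DMSO replicate 1, 2 or 3, and 0.0821, 0.0884 and 0.263 without R1984A-GSI replicate 1, 2 or 3. The call held without all arrays numbered 3 (adjusted p = 0.00667).

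Tests of whether the GSI response itself differed between constructs called no member in the fit of all 24 arrays without a block. The Myc response was 1.51 less negative in ICN1 than in MigR1 cells (SE 0.30, adjusted p = 0.132, unadjusted p = 3.97e-05 by limma). That difference was called with the replicate number as a block (1.514, adjusted p = 0.0104), after quantile normalization (1.505, adjusted p = 0.0050), with array weights (1.21, adjusted p = 0.0426) and without MigR1-GSI replicate 2 (1.72, adjusted p = 0.0439). For R1984A against MigR1 it was 1.297 (SE 0.30, adjusted p = 0.478), called with the replicate block (adjusted p = 0.0462), and 1.32 with an adjusted p of 0.0191 after quantile normalization. It was 0.92 for DNMAML against MigR1 (adjusted p = 1.0) and 0.22 for ICN1 against R1984A (95% interval -0.40 to 0.83, adjusted p = 1.0). These tests called 1, 3, 5 and 0 of all genes for DNMAML, ICN1 and R1984A against MigR1 and for ICN1 against R1984A (0.00502%, 0.0150%, 0.0251% and 0%). At an unadjusted p under 0.05 they held 2, 2, 2 and 1 of the 10 members, beside 3.11%, 3.19%, 3.52% and 2.31% of all genes. Myc was among these members in each test but the last.

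Mycn and Mycl, the MYC genes typical of neural and of certain epithelial tumours, gave little signal. Mycn lay below its own array's median on 22 of 24 arrays, and Mycl on 21. Over all arrays Mycn ranged from 3.24 to 4.11 and Mycl from 3.29 to 4.17. Neither was called in any of the 28 pairs of groups. The 4 Mycn differences of lowest unadjusted p were all against MigR1-GSI. R1984A-GSI stood at -0.45 (SE 0.16, adjusted p = 0.303) and ICN1-DMSO at -0.42 (adjusted p = 0.216), followed by DNMAML-DMSO at -0.405 (adjusted p = 0.640) and ICN1-GSI at -0.38 (adjusted p = 0.314). Of these only the ICN1-DMSO arrays did not overlap those of MigR1-GSI. MigR1-GSI had the highest Mycn mean, at 3.94 ± 0.22 from arrays at 4.02, 3.70 and 4.12.

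Max, the partner that MYC and its repressors share, varied over a narrow range that followed the order of Myc. Its lowest mean was that of DNMAML-GSI, from 9.77, 9.88 and 9.77 (9.81 ± 0.07, n = 3), which overlapped the arrays of MigR1-GSI. MigR1-DMSO read 10.14, 10.09 and 9.99 (10.07 ± 0.07). ICN1-DMSO read highest, at 10.18, 10.16 and 10.26 (10.20 ± 0.05). The group means spanned 0.39, against 2.23 for Myc, and the lowest 6 of the 8 groups stood in the same order for both genes. Across the 24 arrays Max correlated with Myc at r = 0.895, the 70th highest of all other genes, as a description of arrays that share their groups. The correlation was 0.972 over the 8 group means and 0.473 over what remained within groups. Within groups Myc varied most in MigR1-GSI and DNMAML-GSI (SD 0.61 and 0.39), where replicate 3 read lowest (7.07 and 6.85).

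None of the 12 main comparisons called Max. Its largest difference there was ICN1-GSI over MigR1-GSI, at 0.26 (SE 0.09, adjusted p = 0.188), with all 3 arrays higher. That value was called with an intensity trend and robust prior (adjusted p = 0.0462). Over the 28 pairs, limma called Max in 2, both against DNMAML-GSI, the group with the lowest Myc. ICN1-DMSO against DNMAML-GSI called 4 of 10 members (Myc and Max higher, Mxd3 and Mxd4 lower), beside 7.15% of all genes, and ICN1-GSI against it called 3 (Myc, Max and Mxd4), beside 6.99%. For Max, ICN1-DMSO was 0.39 higher (SE 0.09, adjusted p = 0.00738), 1.31-fold, and lost the call only without all arrays numbered 3 (adjusted p = 0.0889). ICN1-GSI was 0.34 higher (SE 0.09, adjusted p = 0.0205), and this call ended without DNMAML-GSI replicate 1 or 3 (adjusted p = 0.0769 and 0.0817), without ICN1-GSI replicate 1 or 2 (0.0636 and 0.0574) and without all arrays numbered 3 (0.103). It also ended with only the groups compared (adjusted p = 0.163).

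Mxd3, a MAD-family repressor known for its expression in dividing cells, was lowest in ICN1-DMSO. Those arrays read 4.55, 4.35 and 4.24 (4.38 ± 0.16, n = 3). MigR1-DMSO read 4.997, 4.79 and 4.89 (4.89 ± 0.11) and R1984A-DMSO read 5.10, 4.94 and 4.92 (4.98 ± 0.10). Every ICN1-DMSO array lay below every array of the other DMSO groups. These levels are not far above the array medians of 3.90 to 4.18.

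ICN1 lowered Mxd3 in DMSO by 0.51 against the empty vector (SE 0.11, adjusted p = 0.0258), 1.42-fold. That call ended without MigR1-DMSO replicate 1, 2 or 3 (adjusted p = 0.168, 0.0506 and 0.103), without ICN1-DMSO replicate 2 or 3 (0.117 and 0.215) and without all arrays numbered 3 (0.314). Against R1984A-DMSO the fall was 0.60 (SE 0.11, adjusted p = 0.00535), 1.52-fold, and it ended without ICN1-DMSO replicate 3 (adjusted p = 0.0592) and without all arrays numbered 3 (0.0788). Against DNMAML-DMSO, Mxd3 was also 0.60 lower (SE 0.11, adjusted p = 8.95e-04) and stayed called with each array left out (adjusted p up to 0.0285). Under GSI the constructs no longer stood apart, with ICN1 0.09 above R1984A (95% interval -0.14 to 0.32). GSI gave 0.31 in ICN1 cells and -0.38 in R1984A cells (SE 0.11, adjusted p = 1.0 and 0.999), with no overlap of arrays in either.

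Mxd4, another MAD-family repressor, ran opposite to Myc at the ends of the order. It was highest in DNMAML-GSI, at 5.30, 5.31 and 5.41 (5.34 ± 0.06, n = 3). The lowest mean was that of ICN1-GSI, from 4.69, 4.72 and 4.94 (4.78 ± 0.14). MigR1-DMSO spread from 4.64 to 5.15 (4.96 ± 0.28) and overlapped both ICN1 groups. Its correlation with Myc was -0.747 over 24 arrays, -0.875 over the 8 group means and -0.427 within groups. No main comparison called it. ICN1-GSI was 0.55 below DNMAML-GSI (SE 0.14, adjusted p = 0.0118), a call that ended without DNMAML-GSI replicate 3 (adjusted p = 0.0582) and without ICN1-GSI replicate 1 or 2 (0.0604 and 0.0515). ICN1-DMSO was 0.54 below DNMAML-GSI (SE 0.14, adjusted p = 0.0145), a call that ended without DNMAML-GSI replicate 3 (0.0677), without ICN1-DMSO replicate 2 (0.119) and without all arrays numbered 3 (0.0737).

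**Figure D3:**
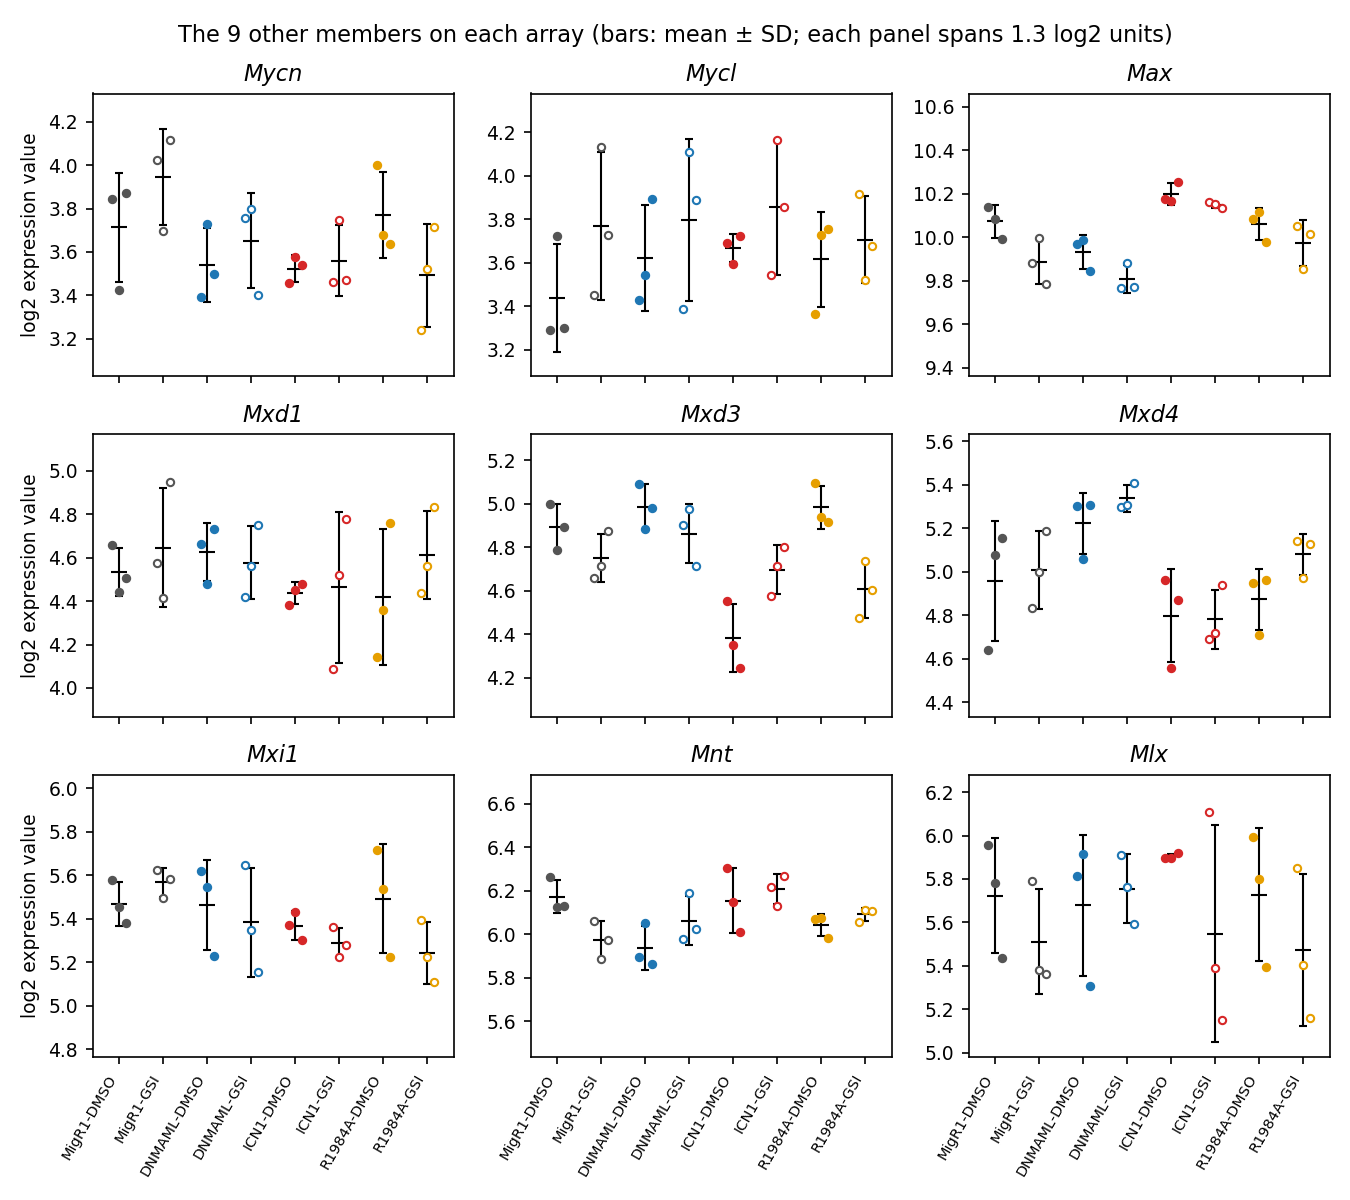
The 9 other members on each array, as log2 expression values by group, with bars for the mean ± SD of 3 arrays and the same width of scale in every panel. Mxd3 is lowest in ICN1-DMSO (4.38), Mxd4 is highest in DNMAML-GSI (5.34), and Max stays within 9.77 to 10.26.

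Mnt varied over a small range, with group means from 5.94 (DNMAML-DMSO) to 6.21 (ICN1-GSI). It correlated with Myc at r = 0.623 over 24 arrays and 0.165 within groups. It read 6.26, 6.13 and 6.13 in MigR1-DMSO (6.17 ± 0.08, n = 3) and 6.06, 5.89 and 5.97 with GSI (5.97 ± 0.09). The arrays did not overlap, and the difference of -0.20 (SE 0.10, adjusted p = 1.0) was not called. ICN1-GSI stood 0.23 above MigR1-GSI (SE 0.10, adjusted p = 0.349), again without overlap or call.

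Mxd1 and Mxi1, repressors that rise in many cells as they stop dividing, were called in none of the 28 pairs. Mxd1 group means ran from 4.42 (R1984A-DMSO) to 4.65 (MigR1-GSI), with SDs up to 0.35. Mxi1 means ran from 5.24 (R1984A-GSI) to 5.57 (MigR1-GSI). Its differences of lowest unadjusted p were R1984A-GSI and ICN1-GSI against MigR1-GSI, at -0.33 and -0.28 (SE 0.14, adjusted p = 0.509 and 0.463), each with all 3 arrays lower. Mlx, the obligate partner of MondoA, was likewise called nowhere. Its arrays spread widely within groups, as in ICN1-GSI at 6.11, 5.39 and 5.15 (SD 0.50), while ICN1-DMSO read 5.90, 5.90 and 5.92 (SD 0.01).

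**Figure D4:**
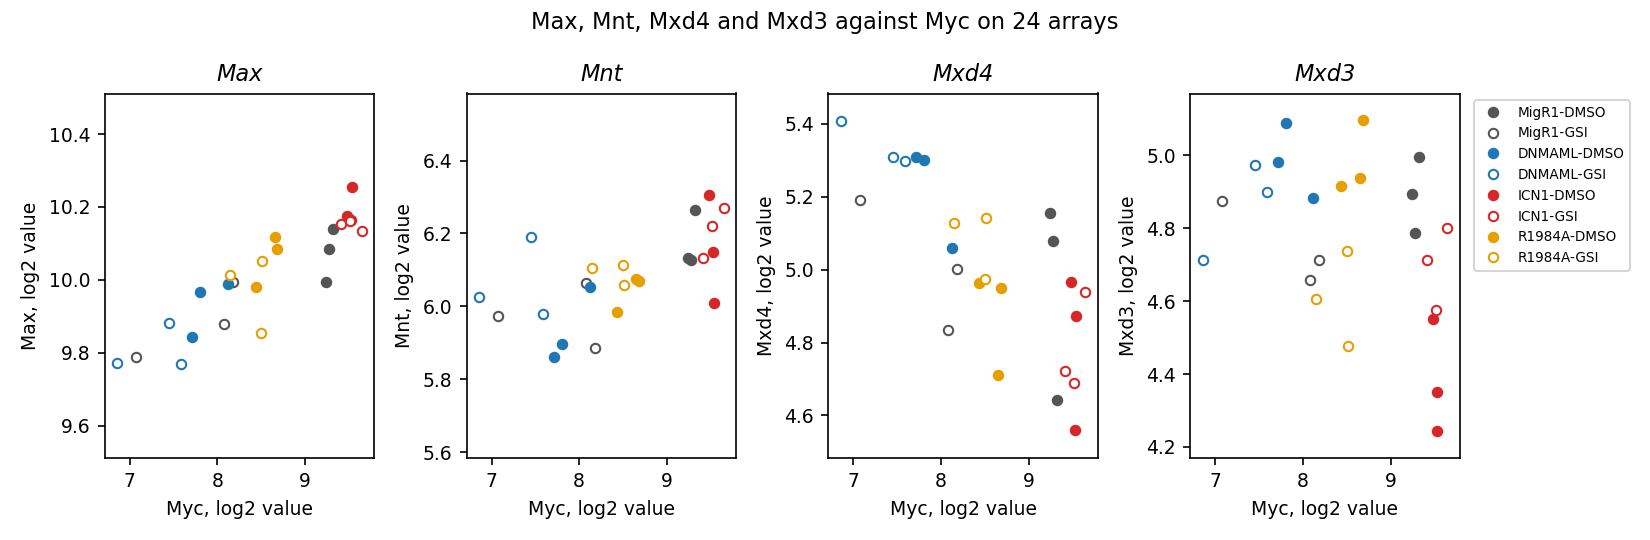
Max, Mnt, Mxd4 and Mxd3 against Myc on 24 arrays, both axes as log2 expression values, with points coloured by construct and open for GSI. Max rises with Myc (r = 0.895), Mxd4 falls with it (r = -0.747), and ICN1-DMSO has the lowest mean for Mxd3. Points of 1 group are not independent of each other.

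Further genes of the network and its regulators moved little. Mga, a MAX partner that assembles a repressive complex, Mlxip and Mlxipl were called in 0 of the 12 comparisons, with 1 unadjusted p under 0.05 at most per comparison. Mlxip came nearest, at 0.29 with ICN1-GSI over MigR1-GSI (SE 0.09, adjusted p = 0.109). Of 22 measured cofactors and turnover factors of Myc, among them Trrap, Fbxw7 and Huwe1, Bin1 alone was called in the 12 comparisons. Bin1, which encodes a Myc-interacting adaptor protein, was lower with ICN1 than with R1984A by 0.60 in DMSO and 0.57 under GSI (SE 0.14, adjusted p = 0.0364 and 0.0467), beside 0.963% and 1.10% of all genes called.

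Genes that Myc is known to raise were read as a list of 32, of which 30 were measured. It was drawn up with earlier results of these data known, so its direction is no independent evidence. With DNMAML in DMSO, 7 of 30 fell and 0 rose, with a median of -0.24 beside -0.004 over all genes, and with 1.94% of all genes called. Srm, the spermidine synthase, fell by 0.78 (SE 0.15, adjusted p = 0.00539). Polr1b, a subunit of RNA polymerase I, fell by 0.76, and Nolc1 and Ddx21, nucleolar proteins of ribosome building, fell by 0.72 and 0.70 (adjusted p = 0.0158, 0.00308 and 0.00708). The count was 11 with the replicate block, and 4 without MigR1-DMSO replicate 2 or DNMAML-DMSO replicate 2.

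For GSI in MigR1 cells limma called 0 of the 30, or 2 with the replicate block, and 5 had an unadjusted p under 0.05, beside 4.88% of all genes. The median was -0.12, with 25 of 30 below 0. Under GSI, DNMAML against MigR1 lowered Srm alone (-0.85, SE 0.15, adjusted p = 0.0165), or 5 genes with the block, and the call was lost without MigR1-GSI replicate 1 or 2, DNMAML-GSI replicate 2 or 3, or all arrays numbered 3. ICN1-GSI over MigR1-GSI raised 5 of 30, led by Polr1b (0.77) and Nip7 (0.71), with a median of 0.19 and 2.35% of all genes called. The count fell to 1 without MigR1-GSI replicate 3 or ICN1-GSI replicate 1, to 3 without MigR1-GSI replicate 1, ICN1-GSI replicate 2, ICN1-GSI replicate 3 or all arrays numbered 3, and to 0 with only the groups compared.

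ICN1-GSI over R1984A-GSI raised 3 of 30, Srm by 0.93 (SE 0.15, adjusted p = 0.00137), Nip7, a ribosome assembly factor, by 0.62 and Nolc1 by 0.56 (adjusted p = 0.0233 and 0.0367). The median was 0.27, with 29 of 30 above 0 and 1.10% of all genes called. The count was 1 without ICN1-GSI replicate 1 or 3 or R1984A-GSI replicate 3, and with only the groups compared. In DMSO the same contrast called 0, or 5 with the replicate block, and 6 genes had an unadjusted p under 0.05, beside 7.07% of all genes. R1984A against the empty vector called 0 in DMSO (1 with the block) and 0 under GSI, where 2 and 3 genes had an unadjusted p under 0.05 (6.66% and 7.51% of all genes) and the medians were -0.08 and -0.05.

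**Figure D5:**
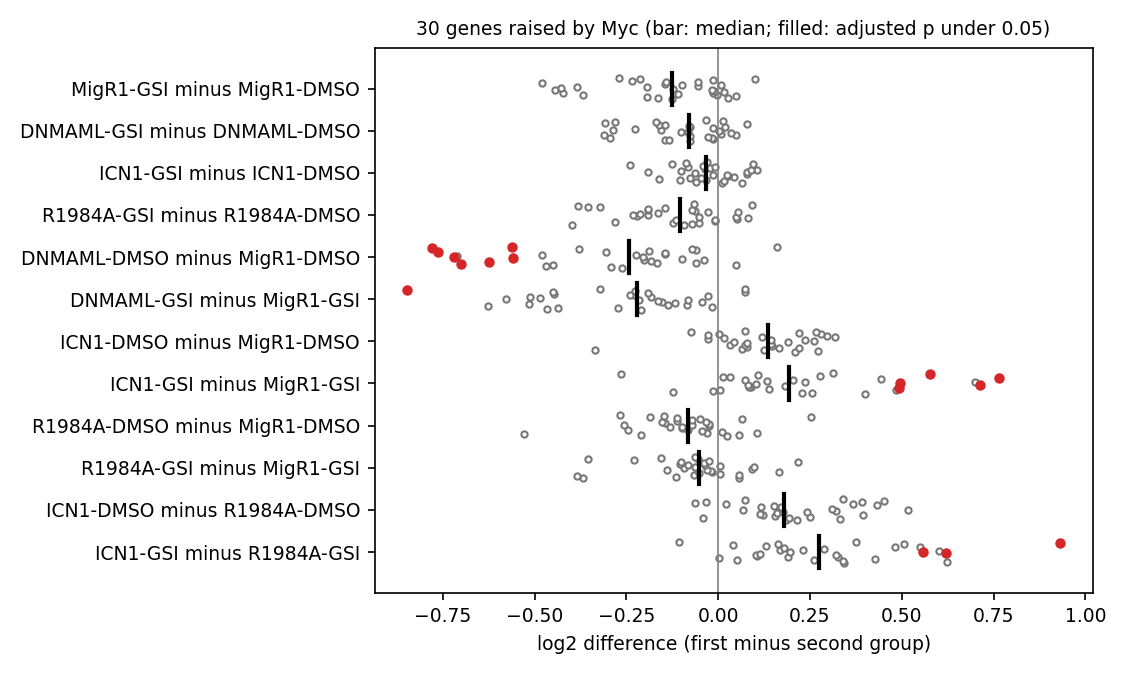
Log2 differences (first minus second group) of the 30 measured genes known to be raised by Myc in 12 comparisons, with a bar at each median and filled points where limma's adjusted p was under 0.05. Medians lie at -0.24 for DNMAML in DMSO and 0.27 for ICN1-GSI over R1984A-GSI.

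Genes that Myc is known to lower gave calls for Gadd45a, a growth-arrest gene, and Cdkn1b, the cell-cycle inhibitor p27, among 5 measured in the 12 comparisons. Gadd45a rose by 0.62 with DNMAML in DMSO (SE 0.11, adjusted p = 0.00184), and Cdkn1b by 0.62 (SE 0.13, adjusted p = 0.00786), beside 1.94% of all genes called. Gadd45a was lower with ICN1 than with R1984A, by 0.62 in DMSO and 0.47 under GSI (SE 0.11, adjusted p = 0.00303 and 0.0277), beside 0.963% and 1.10% of all genes. It was lower with ICN1 than with the empty vector, by 0.59 in DMSO and 0.55 under GSI (adjusted p = 0.00528 and 0.00351), beside 0.727% and 2.35% of all genes. Of the 3 targets of MondoA and Mlx, Txnip, a brake on glucose uptake, alone was called in the 12 comparisons. It was 1.10 higher with DNMAML in DMSO (SE 0.14, adjusted p = 1.03e-04), beside 1.94% of all genes called. In DMSO it was 0.74 lower with ICN1 than with R1984A (SE 0.14, adjusted p = 0.00767), beside 0.963%. Txnip was also called lower in ICN1-GSI (mean 6.822) than in MigR1-GSI (7.495) and R1984A-GSI (7.466), beside 2.35% and 1.10% of all genes. Arrdc4, the other well-known target, stood at 0.03 and -0.03 in those DMSO comparisons. It never read above 3.037, below every array median, so its differences say little.

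Across all 24 arrays the 10 genes most like Myc by Pearson correlation, clone names and small RNAs left out, were Usp10 (0.962), Riok2 (0.957), Utp15 (0.956), Dennd2d (0.954), Krr1 (0.952), Nip7 (0.952), Rrp1b (0.949), Nifk (0.942), Srfbp1 (0.942) and Ndufaf4 (0.941). The 5 most opposite were Slc9a9 (-0.918), Atf6 (-0.905), Lpxn (-0.901), Mpp4 (-0.901) and Med13 (-0.899). These correlations mix differences between groups with those within them. Within groups they ranged from 0.542 (Dennd2d) to 0.908 (Riok2) for the first 10. Myc's spread within groups was widest in MigR1-GSI and DNMAML-GSI, where replicate 3 read lowest, so few arrays weigh heavily in these values. Of the 5 measured genes on each side of Myc on chromosome 15, none was called in the 12 comparisons. Only Trib1 (mean 4.92) and Pvt1 (4.69) averaged above every array median. The rest had means from 2.24 to 3.61, below every array median, so their lack of calls says little. Pvt1, the noncoding gene next to Myc, ranged from -0.14 to 0.12, while Myc itself ranged from -1.503 to 1.749.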

How the data were processed

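Total RNA of T6E cells was measured on 24 Affymetrix Mouse Gene 1.0 ST arrays, 3 for each of 8 groups taken from the titles. The authors deposited 1 table of log2 expression values, made with oligo and limma per the submitters' processing notes. Versions, background correction and normalization are not given in the sources used here, and the log2 scale was read from the range of 1.28 to 13.47. The deposited values were used as they are. Of 35556 probe sets, 21789 carried 1 symbol in the platform annotation, 1621 several and 12146 were unnamed there, and 21698 matched a RefSeq gene of GRCm38.p6 by identifier. The probe set with the highest mean was kept for 999 genes with several, which left 19938 genes. RefSeq served for names, the order of neighbours and promoter windows.

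Differences came from a limma fit (limma 3.58.1, R 4.3.3) that gave each group its own mean (16 residual and 6.56 prior degrees of freedom), two-sided moderated tests and Benjamini-Hochberg adjustment over 19938 genes. All p-values named adjusted are of that fit, or of the same fit under a named alternative. The fit was tested on simulated data with independent noise on each array, which leaves out the deviations that same-numbered arrays shared. Each of 12 comparisons of groups, 2 against MigR1-DMSO and 4 tests of the GSI response was computed, as were all 28 pairs of groups. The alternatives were quantile normalization, only the arrays compared, the replicate number as a block, array weights, dim genes left out, an intensity trend with a robust prior, every probe set in the fit and each array left out. Precision is limited by the 3 arrays a group.

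The members, the lists and the markers were chosen with earlier results of these data known. Named are the members, up to 4 called genes of a list per comparison, the 10 genes most like and 5 most unlike Myc, and its neighbours. Also named, after their values were seen, are uncalled genes given as the nearest or as a second list member (Mlxip, Arrdc4).

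The titles number the arrays of a group 1 to 3. Same-numbered arrays deviated together from their group means, with every correlation over 0.1, in 7 of the 12 comparisons. The lowest correlations there were 0.158 (GSI in MigR1), 0.168 (GSI in DNMAML), 0.114 and 0.225 (DNMAML in DMSO and GSI), 0.144 (ICN1 in DMSO), 0.203 (R1984A in DMSO) and 0.194 (ICN1 against R1984A in DMSO). For these the blocked value stands beside a result where it changes a call or a count of members, of all genes or of genes raised by Myc. The other lists, direct Notch targets among them, and the neighbours of Myc were not read under the block or any other alternative.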

Additional observations from a re-analysis of the deposited data

Results flagged for a closer look

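Mxd3 differences with GSI had opposite signs in the cells with ICN1 and with R1984A. All 3 ICN1-GSI arrays (4.58, 4.71 and 4.80) lay above all 3 ICN1-DMSO arrays (4.55, 4.35 and 4.24), while all 3 R1984A-GSI arrays (4.48, 4.74 and 4.61) lay below all 3 R1984A-DMSO arrays (5.10, 4.94 and 4.92). The response to GSI differed between the constructs by 0.691 (SE 0.16, 95% interval 0.363 to 1.020). The difference was tested with limma and was not called, with an unadjusted p of 2.41e-04 and an adjusted p of 1.0 over all genes. It kept its direction and was not called under any alternative, between 0.603 and 0.776 with arrays left out.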

How the results depend on the processing

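The replicate block, quantile normalization, array weights, only the groups compared, the trend and robust prior, every probe set in the fit, no dim genes, a random replicate block (same-numbered arrays correlated at 0.219) and each array left out were tried. The random block and leaving out all arrays numbered 3 were chosen after seeing the data. Of 356 Myc differences recomputed, 324 kept their direction and side of the threshold. No member has a second probe set, so that alternative was not run, and leaving out dim genes gave no value for Mycn and Mycl. Low signal limits Mycn and Mycl, and 3 arrays a group limit all values. Causes of changed values were not tested.

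The Myc difference for GSI in MigR1 cells stayed at -1.503 with only the groups compared but lost its call, leaving 0 members. That for GSI in ICN1 cells turned sign with array weights (-0.044), without ICN1-DMSO replicate 1 (-0.006), without ICN1-GSI replicate 3 (-0.050) and without all arrays numbered 3 (-0.040), and ranged from -0.050 to 0.068 with arrays left out. R1984A against MigR1 in DMSO was called, with 1 member, after quantile normalization (-0.743), with only the groups compared, the replicate block and the random block (-0.689 each) and with array weights (-0.658), and ranged from -0.734 to -0.612 (0 to 1 members) with arrays left out. ICN1 against R1984A in DMSO lost its call with every probe set in the fit (0.924, leaving 1 member), left 1 member with only the groups compared, and ranged from 0.837 to 0.969 (0 to 1 members). R1984A-GSI against MigR1-DMSO lost its call with every probe set (-0.895, 0 members) and ranged from -0.958 to -0.775 (0 to 1 members). ICN1 against MigR1 in DMSO called 0 members with only the groups compared and with the trend and robust prior, and 0 to 1 with arrays left out. Under GSI it called 2 members with that prior. The GSI response of ICN1 against MigR1 cells was called for Myc after quantile normalization (1.505), with the replicate block and the random block (1.514 each) and with array weights (1.207), and ranged from 1.130 to 1.715. That of R1984A was called after quantile normalization (1.320) and with the replicate block (1.297). In comparisons whose same-numbered arrays were not shown to be paired, the replicate block raised the count of genes known to be raised by Myc from 5 to 10 (ICN1-GSI against MigR1-GSI) and from 3 to 10 (ICN1-GSI against R1984A-GSI), and it changed no other member's call.

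Over all genes, the counts called ranged across the alternatives that keep all arrays from 4 to 82 around 33 (GSI in MigR1), 0 to 1 around 1 (GSI in DNMAML) and 0 to 1 around 0 (GSI in ICN1). DNMAML against MigR1 ranged from 262 to 934 around 386 in DMSO and 5 to 163 around 38 under GSI, ICN1 from 110 to 316 around 145 and 167 to 960 around 469, and R1984A from 129 to 366 around 195 and 96 to 690 around 272. ICN1 against R1984A ranged from 139 to 456 around 192 in DMSO and 51 to 739 around 220 under GSI.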
